A study of Drosophila melanogaster with 3 samples.

Results

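The intronic peaks described here are places inside introns, close to but not at a transcript start, where chromatin carrying the CG10431-GFP protein was recovered from Drosophila melanogaster embryos. They are the entries of the authors' reproducible peak list whose summit, the base of highest signal, lay more than 500 and up to 5000 bp from the nearest annotated transcript start, inside a gene and in no annotated exon, with transposable element records left out. Of the 3314 reproducible peaks, 760 met this rule (22.9%, exact 95% interval 21.5 to 24.4), and they lay in 759 intervals, 1 of which held a pair of summits. The other reproducible peaks were 1801 within 500 bp of a start (called promoter peaks below), 282 in introns farther than 5000 bp from a start, 362 between genes and 109 in exons. At the lower distance limit, the nearest summits left out lay 494 bp from a start, near omd (signal 485.9) and CG13252 (202), and the nearest taken in were in CG4615 (267) and Eip63E (214). At the upper limit, the farthest taken in were in ush at 4966 bp (760.5) and bun at 4939 bp (287), and the nearest left out were in CG31808 at 5021 bp (536) and corn at 5031 bp (201.3).

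The assay was ChIP-seq, in which DNA bound to a chosen protein is pulled down with an antibody and sequenced. It was run on whole embryos of mixed sex, aged 0 to 12 h, of a transgenic line whose CG10431 protein ends in a fused green fluorescent protein, GFP, at the C terminus. Chromatin was sonicated to 200 to 800 bp, and 3 biological replicates made up the only group, so no treatment or genotype was compared. The files' notes derive all 3 control-normalised tracks from a shared control, and the labels' free text calls the libraries an input control, whereas the assay field and the peak files treat them as ChIP libraries. The labels do not give the promoter that drove the fusion gene or the zygosity of the line, and a signal from whole embryos cannot be assigned to a cell type.

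An intron is the part of a gene that is transcribed and then spliced out, and introns close to a start, the first intron above all, are known in flies to hold many enhancers, the stretches of DNA where transcription factors bind to set where and when a gene is used. A transcription factor reads short DNA words, and such words can be counted around peak summits. CG10431 is annotated in RefSeq as an uncharacterized protein, so no word was assigned to it from the annotation.

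The word that most separated the intronic peaks from weaker intronic candidates was TACATGG (counts below). The stretches below are shown because they let the word be seen at the summits of strong members with named host genes. They have 30 bases on either side of the centre of the 7 letters. The stretch of neo, with 30 bases on either side of its summit instead, is shown because it carried 3 copies side by side. All were read from the RefSeq copy of the Release 6 (dm6) genome on the strand given, and capitals mark each TACATGG.
Flo2, chrX:14842193-14842253, minus strand: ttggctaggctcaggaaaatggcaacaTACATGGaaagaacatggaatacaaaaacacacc
CG16952, chrX:15871278-15871338, minus strand: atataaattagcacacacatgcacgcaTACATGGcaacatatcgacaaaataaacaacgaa
skd, chr3L:21026721-21026781, plus strand: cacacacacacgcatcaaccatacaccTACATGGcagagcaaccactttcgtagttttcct
sina, chr3L:16854495-16854555, minus strand: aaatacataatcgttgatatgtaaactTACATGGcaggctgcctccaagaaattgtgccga
CG5853, chr2L:9946160-9946220, minus strand: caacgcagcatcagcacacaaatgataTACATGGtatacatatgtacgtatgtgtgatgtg
ey, chr4:703090-703150, minus strand: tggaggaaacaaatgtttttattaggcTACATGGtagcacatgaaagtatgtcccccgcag
bon, chr3R:20596053-20596113, plus strand: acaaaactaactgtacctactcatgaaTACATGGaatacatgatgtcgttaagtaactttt
Hr4, chrX:1944723-1944783, plus strand: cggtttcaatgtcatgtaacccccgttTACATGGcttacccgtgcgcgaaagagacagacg
neo, chr3R:29820875-29820935, minus strand: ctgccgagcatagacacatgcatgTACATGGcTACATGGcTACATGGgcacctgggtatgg
The letters beside the word differed from member to member. Among the 78 copies in members, the letter 3 bases before the word was A in 55.1% and T in 3.85%, compared with 42.1% and 16.9% of the 178 copies in candidates. The base 2 letters after the word (position 9, counted from the word's T as 1) was A in 50% of the members' copies and 36.5% of the candidates' copies. These flanking shares are descriptions of few copies and were not tested.

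Strong members without TACATGG, or even its 6 letters TACATG, are shown for contrast, with 50 bases on either side of the summit on the plus strand of the same genome copy. Capitals here mark any of the 35 words of 7 letters that were more frequent in the intronic peaks (described below).
CG11050, chr2L:6612668-6612768, plus strand: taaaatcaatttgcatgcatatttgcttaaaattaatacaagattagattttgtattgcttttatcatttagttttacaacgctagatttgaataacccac
SNF4Agamma, chr3R:21154340-21154440, plus strand: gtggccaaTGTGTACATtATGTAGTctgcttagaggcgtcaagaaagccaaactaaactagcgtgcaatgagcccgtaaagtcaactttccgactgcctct
ush, chr2L:481005-481105, plus strand: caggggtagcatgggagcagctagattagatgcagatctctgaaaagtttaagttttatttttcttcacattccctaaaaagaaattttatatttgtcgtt
Lk6, chr3R:11760987-11761087, plus strand: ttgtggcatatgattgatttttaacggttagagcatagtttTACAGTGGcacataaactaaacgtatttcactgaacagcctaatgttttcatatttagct
Trl, chr3L:14759476-14759576, plus strand: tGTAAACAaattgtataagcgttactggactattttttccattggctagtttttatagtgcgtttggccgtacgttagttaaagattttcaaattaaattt
Tlk, chrX:3742168-3742268, plus strand: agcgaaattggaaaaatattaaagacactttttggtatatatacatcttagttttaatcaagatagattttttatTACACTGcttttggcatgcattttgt
CG11050 and ush held none of these words within 50 bases of the summit, SNF4Agamma held overlapping words around TGTACAT and, beside them, ATGTAGT, Lk6 and Tlk held words of the TACANTG type, and Trl held the Forkhead word on the opposite strand.

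The strongest intronic peaks lay in genes of very different roles and came back in every replicate. Signal below is the deposited value of each entry on the authors' scale, whose unit the sources do not state. Replicate values are those of the strongest entry within 250 bp of the summit in each replicate's own candidate list. The strongest member lay in the first intron of 14-3-3zeta, which encodes an adaptor that binds phosphorylated proteins (FBgn0004907, chr2R:10101395-10102333), 857 bp downstream of its start. Its signal was 9372 in the pooled list and 2355, 4027 and 3019 in replicates 1, 2 and 3. The next lay in an intron of Flo2, which encodes the membrane scaffold protein flotillin (FBgn0264078, chrX:14841837-14842657), with 8008 pooled and 1907, 3340 and 2780 in the replicates. These were the entries of rank 3 and 4 among all 3314 reproducible peaks, and each was of rank 3 or 4 in all 3 replicates.

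The other members of the strongest 10 followed at a lower level. CG16952 had a signal of 4346, with 969.5, 1942 and 1425 in replicates 1, 2 and 3. CG1648 had 3165, with 783, 1313 and 1069, and its nearest start was that of the neighbouring lectin gene lectin-46Cb. The gene skd, which encodes a subunit of the Mediator kinase module and is also placed in the Trithorax group, had 2320, with 532, 1165 and 641. In all of these, replicate 1 was lowest and replicate 2 highest. CG11050 had 2304, with 819.9, 894 and 590.4 in the replicates. Sec63, a component of protein import into the endoplasmic reticulum, had 1977, with 499.8, 846 and 641. The gene sina, which encodes a ubiquitin ligase needed for photoreceptor fate, had 1866, with 502, 776 and 584. SNF4Agamma, the gamma subunit of AMP-activated kinase, had 1794, with 410.4, 790.5 and 597.5, and the eye homeodomain gene so had 1745, with 475, 730.3 and 538.5. The summit in so lay in its intron 6, and the nearest start was that of CG11145, with the summit 659 bp upstream of it. Replicate 2 was highest in each of the 10, and replicate 3 was lowest in CG11050 alone among them.

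Members ranked 11 to 20 had pooled signals from 1677 down to 1278 and lay in ush, Lk6, Trl, Tlk, CG32772, CG9663, HmgZ, CG32816, CG5853 and cno. Their products include a zinc-finger partner of GATA factors (ush), a kinase of the translation factor eIF4E (Lk6), the GAGA factor (Trl), Tousled-like kinase (Tlk), an HMG-box chromatin protein (HmgZ) and the junction protein Canoe (cno). In ush the summit lay 1367 bp upstream of the start of cbt, not of ush, with 581.7, 640.3 and 433 in the replicates. In CG32816 it lay 2091 bp upstream of the proneural gene l(1)sc, with 324, 575 and 410.1. All of the 20 strongest members were found in all 3 replicates, 15 lay in a first intron, and the lowest place any of them took in a replicate list was rank 119. In the 12 of the 20 without TACATGG, replicate 3 was below replicate 1 in 9, and in the 8 with it, replicate 3 was above replicate 1 in 8.

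**Figure D1:**
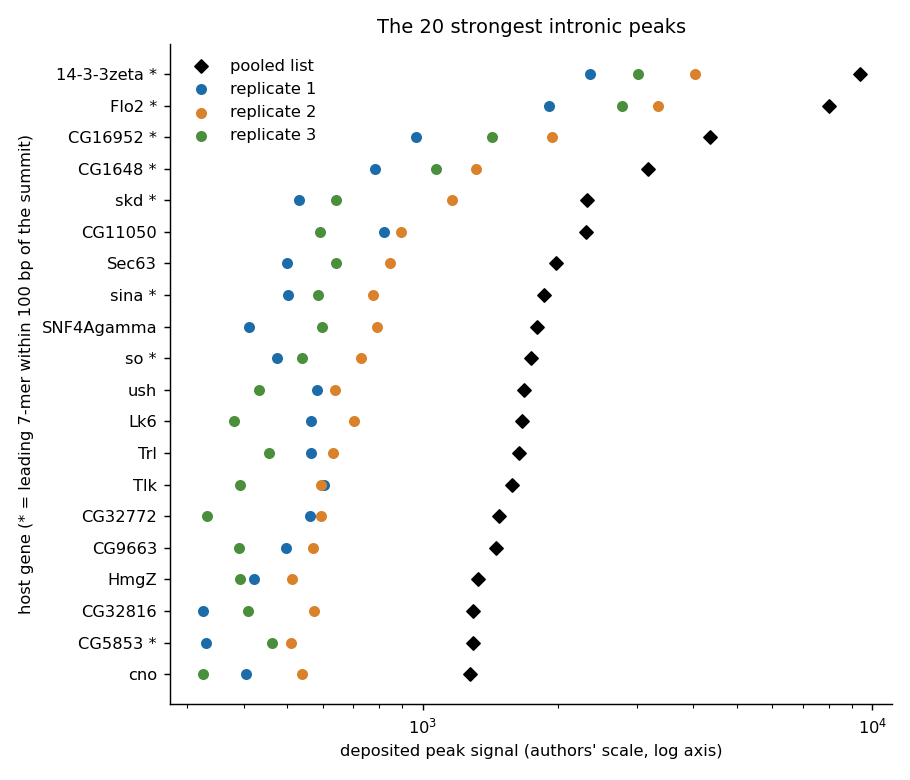
Deposited signal (log axis) of the 20 strongest intronic peaks, named by host gene, in the pooled list (black diamonds) and in each of the 3 replicates (coloured points). An asterisk marks the 8 peaks with the leading 7-letter word within 100 bp of the summit, and 7 of these are among the 10 strongest.

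Signal over all 760 members ran from 186.8 to 9372 with a median of 280.8 (quartiles 223 and 408), and 23 members exceeded 1000. The median was 284 in promoter peaks, 262 in introns far from a start and 273.7 between genes. A member counted as found in a replicate when one of that replicate's 3314 strongest entries had its summit within 250 bp. By this measure 84.5% of members were found in replicate 1, 85.0% in replicate 2 and 78.0% in replicate 3 (mean 82.5% ± 3.88 SD, n = 3). All 3 replicates held 472 members (62.1%, exact 95% interval 58.6 to 65.6), 187 were held by 2, 91 by 1 and 10 by none. The share held by all 3 was 61.9% for promoter peaks, 57.8% for far introns and 59.4% between genes. The pooled list and the selection for reproducibility were made from these same replicates, so the recurrence describes the list and is not independent of it. Replicate candidate lists hold 30000 entries each, and the number of reads behind a value is unknown from the sources used here.

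The intronic peaks lay in a first intron more often than weaker intronic candidates did, and their nearest start belonged more often to the host gene. The candidates are the 6877 entries of the pooled list outside the reproducible peaks that met the same rule of position, out of 26686 such entries in all. Of the members, 589 (77.5%, exact 95% interval 74.4 to 80.4) lay in the first intron of at least 1 transcript, compared with 69.7% of the candidates (odds ratio 1.5, adjusted exact p = 3.17e-05). The nearest start belonged to the host gene for 612 members (80.5%) and 72.3% of candidates (odds ratio 1.58, adjusted exact p = 9.04e-06). Chromosome arm 4 held 4 members (0.526%) and 1.88% of candidates (odds ratio 0.277, adjusted exact p = 0.0177), namely those in ey, Mitf, Asator and Actbeta. These were 3 of 11 features of position past an adjusted p of 0.05 (27.3%), by Fisher's exact test, two-sided, with p-values adjusted by the Benjamini-Hochberg method over the 11. Tests of this kind here take regions as their units, not embryo collections, and neighbouring regions are not independent. Without replicate 1, 2 or 3, that is among members held by both of the others, the arm 4 odds ratio was 0.30, 0.304 and 0.284, with adjusted exact p of 0.0686, 0.0684 and 0.0660.

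Repeated in each replicate's own list, with its 3314 strongest entries against the rest, the first-intron share was 77.3, 78.4 and 78.9% against 69.1, 69.5 and 68.9% for replicates 1, 2 and 3. The share whose nearest start was the host's was 80.9, 80.5 and 80.7% against 72.7, 72.4 and 73.0%. Both features were higher in 3 of 3 replicates, with no overlap between the peaks' and the candidates' values. Some features that did not pass, such as protein-coding hosts and arm 3R, had no overlap either, so this does not set the called features apart. The arm 3R share, 23.7% against 20.6%, did not pass (odds ratio 1.20, adjusted exact p = 0.132), nor did introns longer than 2000 bp, 79.2% against 81.6% (adjusted exact p = 0.214), or protein-coding hosts, 98.7% against 97.6% (adjusted exact p = 0.156).

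**Figure D2:**
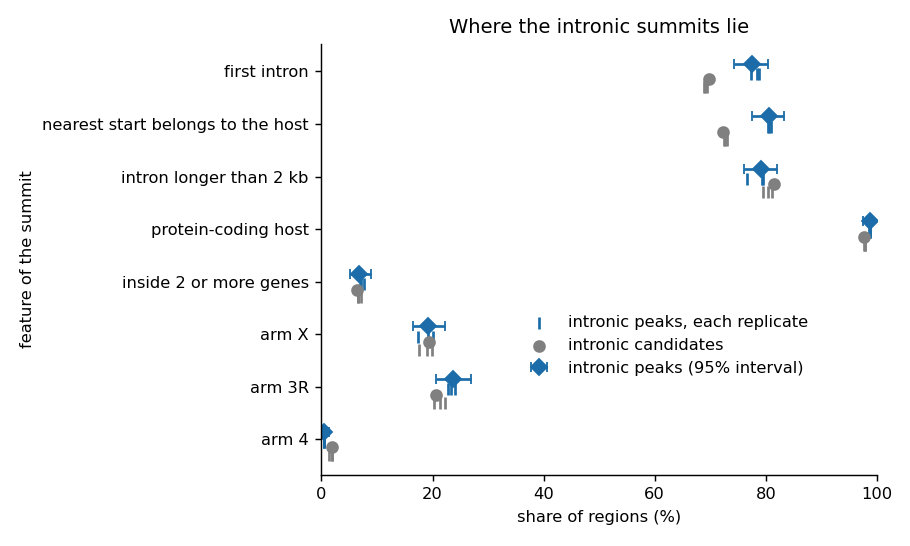
Share of regions (%) with each feature of position, for the 760 intronic peaks (blue diamonds with exact 95% intervals), the 6877 intronic candidates (grey circles) and, as blue and grey ticks, the same in each of the 3 replicates' own lists. First introns and nearest starts that belong to the host gene stand to the right of the candidates, at 77.5% against 69.7% and 80.5% against 72.3%.

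The median distance from a start was 1648 bp for members and 1936 bp for candidates. Distances up to 1000 bp made up 29.2% of members and 22% of candidates, and those over 2000 bp 39.1% and 48.3%. Downstream of a start of the host gene lay 447 members (58.8%, against 54.0% of candidates), 165 lay upstream of one of the host's alternative starts (21.7% against 18.4%), and 148 were nearest to the start of another gene (19.5% against 27.7%). The host's own start also carried a reproducible promoter peak for 330 members (43.4%) and for 39.6% of candidates. These distances and shares are descriptions. The tested share for the nearest start did not pass among summits up to 2000 bp from a start (odds ratio 1.31, adjusted exact p = 0.205).

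The 760 members lay in 542 host genes when each was given its main host, and 395 of those genes held 1 member. CG1677 and CHES-1-like, a forkhead gene, held 7 each, Dys, the dystrophin gene, held 6, and SNF4Agamma, the kinase gene Raf, shn and Eip75B held 5 each. The 7 summits in CG1677 all lay in its second intron, of 72465 bp, and none was nearest to a start of CG1677 itself. They were nearest to unc-119, CBP, CG42780 and brk, the last of which encodes a repressor of targets of the Dpp growth factor. The strongest had a signal of 897, with 233, 371 and 281.5 in the replicates, and lay 3054 bp upstream of unc-119. The 7 summits in CHES-1-like had signals from 194 to 690.2, and 6 of them were nearest to one of its own starts. None of the 7 in either gene held TACATGG. Since 1 long intron can hold many summits, members in the same gene share a source and are not independent.

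Of 8192 words of 7 letters, each counted with its reverse complement, 35 were more frequent within 100 bp of the summits of the intronic peaks than of the candidates (0.427% of words tested) and 4 were less frequent (0.0488%). TACATGG had the smallest p. It was present in 75 members (9.87%, exact 95% interval 7.84 to 12.2) and in 177 of 6877 candidates (2.57%), an odds ratio of 4.15 (two-sided Fisher's exact test, Benjamini-Hochberg adjusted p over all words = 2.36e-15). In the replicates' own lists it was present in 8.52, 11.3 and 10.6% of intronic peaks against 2.62, 2.49 and 2.30% of the candidates, or 10.1% ± 1.44 against 2.47% ± 0.162 (SD, n = 3), and so higher in 3 of 3. This word was already known to lead among all the reproducible peaks as a whole, so its place here is not independent support. Windows centred 500 bp to the right of the same summits held it in 1.45%. These windows were not required to stay in an intron or away from a start.

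Of the 35 more frequent words, 16 fell outside the kinds named here, and the rest fell into a few overlapping kinds. Of the 35, 5 held TACATG and a further 5 overlapped TACATGG by 5 or more letters, so these 10 in part count the same copies. Among them were ATACATG (8.29% of members against 3.33% of candidates, adjusted exact p = 6.68e-06), CTACATG (4.61% against 1.61%, adjusted exact p = 0.00066) and ACATGGT (4.08% against 1.32%, adjusted exact p = 0.00066). A further 4 held ACACTG, its variant with G as the fourth letter, or TACANTG, namely ACACTGA (5.92% against 2.25%, adjusted exact p = 0.000225), TACACTG (6.45% against 2.73%, adjusted exact p = 0.00066), CCACTGT (8.16% against 3.98%, adjusted exact p = 0.00114) and TACAGTG. Outside these groups, 5 more words held GTAAA or, for a pair of them, GCAAAC, led by TATTTAC (13.9% against 7.29%, adjusted exact p = 7.88e-06) and TGTTTAC (11.4% against 6.22%, adjusted exact p = 0.000534). CTTACTG, 1 of the 16 outside these kinds, was in 3.68% against 1.08% (adjusted exact p = 0.000534). The 4 less frequent words were GCAAAAA, the related CCAAAAA, the A-rich CAAAAAA and, apart from these, CCAGGCA. All 39 were called by Fisher's exact tests on the pooled lists, and their shares went the same way in 3 of 3 replicates, without a test there. The pooled lists were made from these same replicates, so the agreement is not independent. At least 1 of the 35 words was present in 673 members (88.6%) and in 68.2% of candidates.

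TACATGG lay close to the summits of the intronic peaks. Of its 78 copies within 100 bp, 45 (57.7%) had their centre within 20 bp of the summit, with a median distance of 17.5 bp, whereas 50 of 178 copies (28.1%) did so in candidates, with a median of 43 bp. The entries of candidates had the default width in 99.9% of cases, with the summit in the middle, while 63.6% of members had it, and the part of this in the closer spacing was not tested. TATTTAC had 42.4% of its copies within 20 bp in members and 27% in candidates. TACACTG, at 15.1% against 20.6%, and TACAGTG, at 13.7% against 16.2%, were no closer in members than in candidates by these shares.

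**Figure D3:**
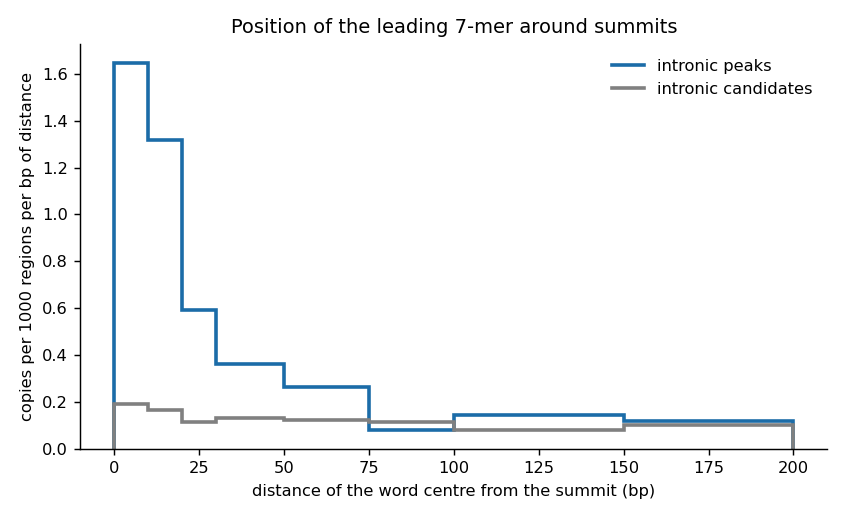
Copies of the leading 7-letter word per 1000 regions and per bp of distance, by distance of the word's centre from the summit (bp), for the 760 intronic peaks (blue) and the 6877 intronic candidates (grey). The members' line is at 1.65 within 10 bp and 0.079 from 75 to 100 bp, whereas the candidates' line stays between 0.0800 and 0.189.

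The share of members with TACATGG was highest among the strongest. It was present in 11 of the 25 strongest members (44.0%, exact 95% interval 24.4 to 65.1), 16% of the next 75, 10.7% of the next 150, 7.20% of the next 250 and 6.92% of the remaining 260. Candidates of the stronger signal ranks held it in 3.11% and those of the weaker ranks in 2.04%. In the replicates' own lists the 25 strongest held it in 28.0, 48.0 and 44.0%, and the weakest group held it in 6.91, 8.44 and 5.61%. The intervals of the 25 strongest and of the weakest group did not overlap. Members with the word had a median signal of 359 and those without it 277. Their GC content also differed, with a median of 42.3% against 37.3%, and with GC held between 35 and 45% the odds ratio against candidates was 4.62 (Fisher's exact test, adjusted p = 9.36e-08).

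**Figure D4:**
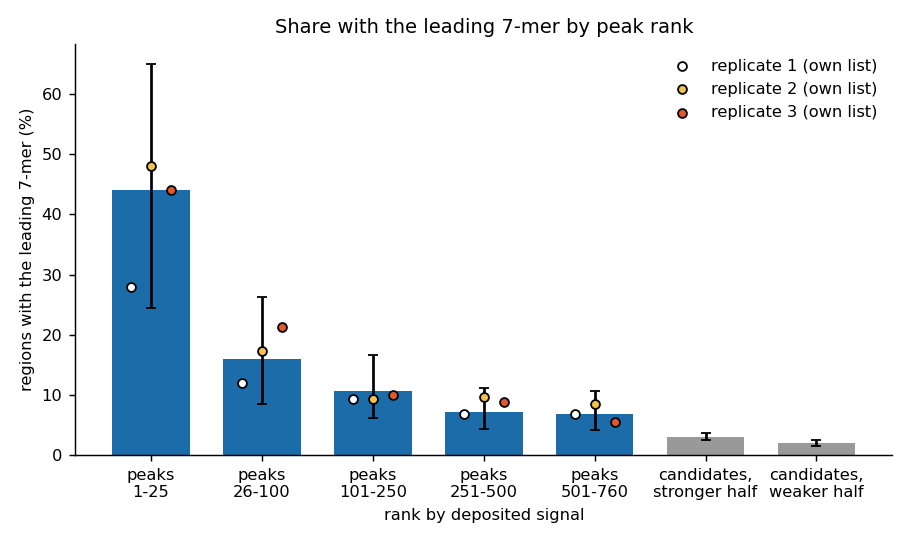
Share of regions (%) with the leading 7-letter word within 100 bp of the summit, by rank of deposited signal, for the intronic peaks (blue bars) and the candidates (grey bars), with exact 95% binomial intervals and the same ranks in each replicate's own list as points. The bars fall from 44.0% in the 25 strongest peaks to 6.92% in the weakest 260, and the candidates are at 3.11 and 2.04%.

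To set the words beside known ones, 30 fixed motifs were searched on both strands in the same windows. Besides the leading word and its shifted form ATACATG, they covered words of fly promoters, namely TATCGATA for the DRE element read by the factor Dref, GGTCACACT for the promoter element called Motif 1, CAGCTG for the one called Motif 5, and TATAAAA for the TATA box. For insulator and architectural proteins the search used AGNNGGCGC for CTCF, then CGATA for the protein BEAF-32, and TGCATA for the core read by the protein Su(Hw), with GAGAG for the GAGA factor and GCCATNTT for the Polycomb recruiter Pho. For regulators of the early embryo it used CAGGTAG for the pioneer factor Zelda, CATATG for the mesoderm factor Twist, TTTTTTG for the gap factor Hunchback, TTTATNG for the posterior factor Caudal, and TAATTA for homeodomain proteins as a class. For signalling pathways it used TTCNNNGAA for the JAK/STAT effector Stat, GCCGCC for the BMP effector Mad, CCGGAAG for the Ets factors of the Ras pathway, and TGANTCA for the AP-1 dimer. For other factor families it used TGATAAG for the zinc-finger GATA factors, AACCGGTT for the epidermal factor Grainyhead, ATGCAAAT for the octamer read by POU proteins, AACAATG for the HMG-box Sox proteins, TGTTTAC for the winged-helix Forkhead proteins, AACCACA for the Runt family, CAAGGTCA for the nuclear receptor Ftz-F1, and CACGTG for other helix-loop-helix proteins. The repeat CACACAC and a run of 7 A, called the A run here, completed the set. The leading word overlaps its shifted form, the DRE contains CGATA, and the Hunchback word overlaps the A run. Against candidates 5 of the 30 passed (16.7%) in two-sided Fisher's exact tests adjusted over the 30. These were TACATGG, its shifted form ATACATG and Forkhead, more frequent in members, and Hunchback and the A run, less frequent. All but the A run are also words of 7 letters called above, with the same counts. Their calls here repeat that scan with an adjustment over fewer tests. The motifs were chosen with earlier results of these data known.

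Forkhead was in 11.4% of members and 6.22% of candidates (odds ratio 1.95, adjusted exact p = 3.90e-06), with 12.2% ± 0.824 against 6.46% ± 0.176 over the 3 replicates (SD, n = 3). Among summits up to 2000 bp from a start it did not pass (odds ratio 1.43, adjusted exact p = 0.249). Hunchback was in 16.7% of members and 22.5% of candidates (adjusted exact p = 0.0016) and the A run in 26.7% and 31.7% (adjusted exact p = 0.030). Against windows 500 bp to the right of the same summits the A run went the other way, with 26.7% at summits and 20.4% beside them (exact McNemar test, adjusted p = 0.0257), and Hunchback was at 16.7% and 17.6%. Among members in the strongest 50% of reproducible peaks neither passed against candidates (adjusted exact p = 0.0813 for Hunchback and 0.0641 for the A run). TATA did not pass against candidates, with 14.2% of members and 12.7% of candidates (adjusted exact p = 0.460), but did against those windows, with 8.95% there (exact McNemar test, adjusted p = 0.0147). Those windows can fall in exons or at starts, as the members' median distance to an exon of the host was 1017 bp. The part of this in the differences was not tested. Zelda was in 0.658% of members and 0.945% of candidates and the DRE in 0.526% and 0.523%, and neither passed. A match is a string of letters and does not show that the named factor binds there.

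Against the other classes of reproducible peak, 13 of 90 comparisons of motif and class passed (14.4%), and 11 of these were against promoter peaks. TACATGG was in 9.87% of intronic peaks and 4.61% of promoter peaks (odds ratio 2.27, adjusted exact p = 3.14e-05). GATA (6.71% against 3.94%, adjusted exact p = 0.0424), AP-1 (5.66% against 2.94%, adjusted exact p = 0.0246), Sox (5.66% against 3.05%, adjusted exact p = 0.0302) and ATACATG (8.29% against 5.11%, adjusted exact p = 0.0302) were also more frequent in introns. Among promoter words, the DRE and both numbered motifs were less frequent there, while TATA did not pass (14.2% against 16.2%, adjusted exact p = 0.543). The DRE was in 0.526% of intronic peaks and 5.61% of promoter peaks (adjusted exact p = 8.99e-10), Motif 1 in 0.132% and 3.5% (adjusted exact p = 1.57e-07), the insulator word BEAF-32 in 20% and 32.5% (adjusted exact p = 3.25e-09) and Motif 5 in 9.47% and 13.4% (adjusted exact p = 0.047). Pho (2.76% against 5.16%) and Ets (0.395% against 1.67%) were lower too, each with an adjusted p of 0.047. Fisher's exact test, two-sided, was used throughout and adjusted over the 90. Of the motifs that passed against promoter peaks, only TACATGG and ATACATG also passed against intronic candidates. Those candidates held GATA in 5.37%, AP-1 in 5.32%, Sox in 4.86% and BEAF-32 in 20.9%. Candidates at promoters were not searched, so a difference between introns and promoters in general was not tested.

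None of the 30 motifs passed against peaks in introns far from a start, where 1 had an unadjusted p under 0.05 by Fisher's exact test and the smallest adjusted p was 0.169. TACATGG was in 12.4% of the far-intron peaks and 11.3% of those between genes, both above the 9.87% of members without passing (adjusted exact p = 0.601 and 0.788). Against peaks between genes, Forkhead was higher (11.4% against 5.80%, adjusted exact p = 0.0302) and CTCF lower (1.84% against 4.97%, adjusted exact p = 0.047). With only the stronger-signal 50% of the reproducible list, 5 of the 90 comparisons passed, namely TACATGG, Sox, the DRE, Motif 1 and BEAF-32 against promoter peaks. GATA, Pho and the shifted word ATACATG passed neither there nor with 50 bp on either side of the summit.

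**Figure D5:**
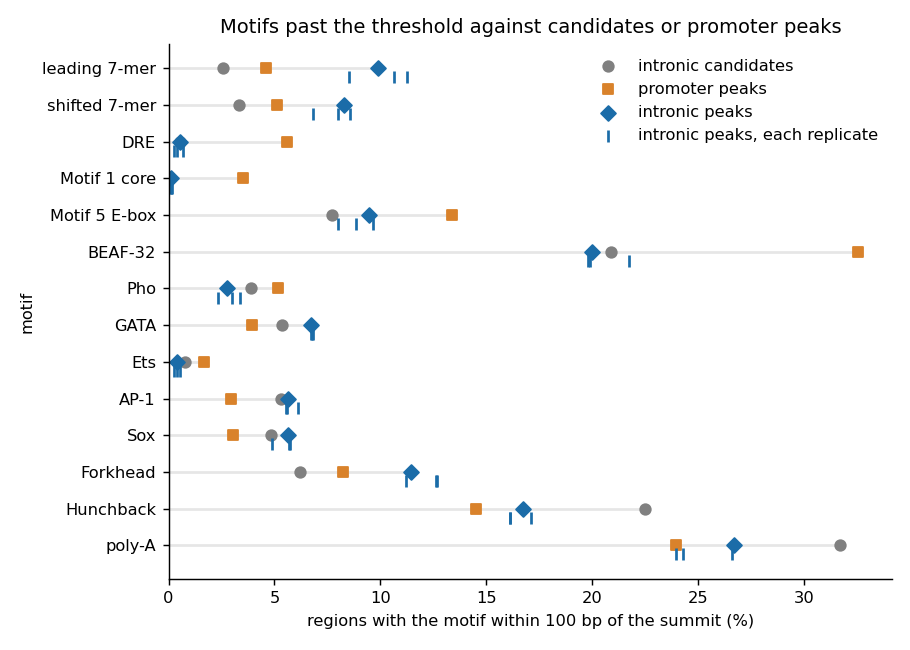
Share of regions (%) holding each motif within 100 bp of the summit, for the motifs past the threshold against candidates or promoter peaks, in the 760 intronic peaks (blue diamonds, with ticks for the 3 replicates' own lists), the 6877 intronic candidates (grey circles) and the 1801 promoter peaks (orange squares). The DRE, Motif 1 and BEAF-32 words stand far to the right in promoter peaks, with BEAF-32 at 32.5% against 20%, and the leading 7-mer is to the right in intronic peaks.

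Of 2396 genes with an intronic candidate or peak of this kind, 574 held a peak (24%), every overlapping host counted. In the gene counts below, a gene with a candidate is likewise one with any pooled entry of this kind, reproducible peaks included. Genes with a peak had a median of 4 candidates and all such genes a median of 2, and each list's share below is to be read with that number. The lists were chosen with earlier results known and are described by counts, with no test. A gene counts by holding the summit in an intron, and the nearest start can be another gene's, as for 19.5% of all members. Of the list genes named below, this held at the summit given for so, ush, fz, ptc, mam, Cdk4, dlp, NetB, sli, chic, KCNQ and mrj. Among regulators of neural fate, 11 of 17 genes with a candidate held a peak (median 4 candidates a gene). They included so, the Pax6 gene ey (1056, with 273, 451.4 and 348) and grh (514). Among Hox genes, which set segment identity, 3 of 5 did (median 7 candidates), namely Abd-B (327), lab (223) and Antp (219). Of the segmentation genes 1 of 8 did (Dsp1, 187), and of dorsoventral patterning genes 1 of 11 (ush). The median was 3 candidates a gene in the former list and 2 in the latter.

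Ecdysone response regulators, the nuclear receptors and other factors that follow the moulting hormone, held a peak in 6 of 12 genes (median 8.5 candidates). EcR, which encodes the ecdysone receptor itself, had 945 with 217, 457.5 and 278 in the replicates, and held TACATGG at 3 of its 4 summits. Hr4 had 769 with 188, 321 and 263, also with the word, and Hr3 had 499 without it. Of Polycomb and Trithorax group genes, which keep genes silent or active, 7 of 11 held a peak (median 4), led by skd, Trl and trx (509.7). Of RNA-binding and splicing genes 12 of 23 did (median 5), led by brat (651), bru2 (595.5) and Rbfox1 (473).

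Among signalling genes, the EGFR, FGFR and Ras list had 10 of 23, led by Raf (845.5), the EGFR inhibitor aos (668) and edl (666). The BMP and JAK/STAT list had 7 of 13, led by Mad (619), the signal transducer of Dpp, then shn (474) and Stat92E (292). The Wnt and Hedgehog list had 5 of 15, led by the receptors fz (469.9) and ptc (447) and by nkd (352.5), and the Notch list had 1 of 8, the coactivator mam (481). The insulin, TOR and metabolism list had 5 of 17, led by Lk6, the insulin receptor InR (851) and SREBP (377). Cell cycle regulators had 5 of 11, led by CycE (494), Cdk4 (489) and E2f1 (433), and mesoderm and muscle regulators 5 of 17, led by kirre (553.5), mbc (408) and zfh1 (406). Median candidates a gene were 4 for EGFR, FGFR and Ras, 3 for BMP and JAK/STAT, 4 for Wnt and Hedgehog and 5 for Notch. They were 2 for insulin, TOR and metabolism, 3 for cell cycle and 3 for mesoderm and muscle.

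Lists of cell structure and physiology were counted in the same way. Axon guidance and adhesion genes had 10 of 39, led by dlp (455), NetB (368) and sli (326). Actin, microtubule and motor genes had 6 of 21, led by tsr (419), Msp300 (293) and chic (250.2). Ion channel and neurotransmission genes had 2 of 19, KCNQ (530.2) and Irk1 (283). No peak was listed in the 3 cytosolic ribosomal protein genes and 5 translation factor genes with a candidate. Clock genes had 3 of 7 (vri 399.8, Pdp1 303 and dco 289), insulator genes 2 of 2 (Trl and mod(mdg4), 433), heat shock protein genes 2 of 2 (Hsp83 371 and mrj 211), and 14-3-3 and flotillin genes 2 of 3. No SUMO pathway gene had a candidate. Median candidates a gene were 4 for axon guidance and adhesion, 3 for actin, microtubule and motor, and 1 for ion channel genes. They were 1 for ribosomal protein and for translation factor genes, 3 for clock genes and 3.5 for insulator genes. Heat shock protein genes had 7, and 14-3-3 and flotillin genes 6.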

How the data were processed

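Peak lists of CG10431-GFP ChIP-seq on dm6 were analysed: the authors' list of reproducible peaks (irreproducible discovery rate, IDR), their pooled candidates and 1 candidate list for each of 3 replicates. Per the file headers and values, the authors deposited a signal per entry (scale not stated) and a −log10 q-value, used only to check the files. Aligner, caller and read depth: not given in the sources used here.

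Summits were classed with Ensembl BDGP6 annotation (release 115, 18358 genes, 23776 starts), whose introns carried GT-AG or GC-AG ends in 99.9% of 152791 cases in the RefSeq genome copy. Windows took 100 bp on either side of a summit. Presence of 8192 words and 30 motifs was compared with two-sided Fisher's exact tests (scipy 1.17.1, numpy 2.4.6, pandas 2.3.3, Python 3.11.15), Benjamini-Hochberg adjusted over each family at 0.05, and the test code was checked on simulated data. Intervals are exact binomial at 95% and cover counting error only. The replicate numbers come from the labels. Genes and words are named by rule: the 20 strongest members, the 5 host genes with most members (ties broken by signal), up to 3 host genes a list, the 10 words of smallest p and every motif past the threshold. Other named genes, among them bon, neo, cysu, genes at the distance limits and on arm 4, and further hosts of 5 members, were chosen after their values were seen. Members and lists were chosen with earlier results of these data known.

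The alternatives were another distance for sharing, number of replicate entries, window, distance class, background or GC range, only the stronger reproducible peaks, 1 summit per interval, windows beside the summits, and leaving out each replicate. Except for recurrence, leaving out a replicate kept only the members held by both of the others. The peak lists were not called again and the candidates stayed the same, so these settings do not show the results without that replicate's data.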

Additional observations from a re-analysis of the deposited data

How the results depend on the processing

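No comparison of groups paired by replicate was possible because the replicates form only 1 group. The recurrence mean (82.5%) was 50.6% with 50% as many replicate entries, 99.7% with all of them and 97.8% for members in the strongest 50% of reproducible peaks. The share found in every replicate (62.1%) was 34.5, 99.1 and 93.5% under these, 55.4% when shared meant within 100 bp, and 68.4 to 73.2% without 1 replicate, where only 2 need to agree. The mean ran from 81.3 to 84.7% without 1 replicate. The count of 7-letter words more frequent in members (35) was 11 up to 2000 bp from a start, 7 beyond it, 76 against the weaker candidates, 20 and 72 in windows of 50 and 200 bp a side, 12 with GC held at 35 to 45% and 13 against windows beside the summits. It was 31 to 36 without 1 replicate. Motifs past the threshold (5) were 3 in the strongest 50%, 2 up to 2000 bp and 8 in the wider window. Features of position (3) were 1 up to 2000 bp and 5 against the weaker candidates. Comparisons with other classes (13) were 5 in the strongest 50%. The share of host genes with a peak (24%) was 13.3% in the strongest 50% and 17.4 to 18.4% without 1 replicate. Fewer regions or entries enter most of these settings by construction, and other causes were not tested.

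The TACATGG odds ratio kept its direction and passed in all 12 alternatives, from 3.04 to 7.46, and that of first introns in all 8, from 1.39 to 1.77. The A run reversed against windows beside the summits (odds ratio 1.42). Arm 4 lost its call in 5 of 8 alternatives and Hunchback in 4 of 12. A tally followed only calls of the main setting: the 10 words of smallest p without TACATGG, the motifs, the class comparisons and the 3 features. The count of less frequent words was added to it. In this tally 173 alternative values stayed on their side of the threshold, 45 no longer passed, 11 counts moved and 1 reversed. The unknown read depth limits every level given.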

Other observations

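The replicates ranked members with and without TACATGG differently, a pattern noticed after the members' values were seen and given without a test. Signal in replicate 3 exceeded that in replicate 1 for 61 of the 75 members with the word (median ratio 1.28, quartiles 1.08 and 1.53) and for 277 of the 678 others with an entry in each replicate (40.9%, median ratio 0.918, quartiles 0.727 and 1.17). The ratio of replicate 2 to replicate 1 had a median of 1.71 with the word and 1.29 without it, and that of replicate 3 to replicate 2 was 0.752 and 0.732. Among the 100 strongest members, replicate 3 exceeded replicate 1 in 21 of 23 with the word and 14 of 77 without it. In single members, the peaks of ey (273, 451.4 and 348 in replicates 1, 2 and 3), bon (193, 377 and 291) and cysu (170.0, 341 and 231) held the word and were lowest in replicate 1. The peaks of Raf (327, 349 and 174), aos (298.5, 227 and 153) and KCNQ (204, 174 and 143) lacked it and were lowest in replicate 3. The signal scale of the replicate lists is not given, so the ratios compare the 2 sets of members with each other and not the replicates. The weaker standing of the word in replicate 1 (28.0% of its 25 strongest intronic peaks, against 48.0 and 44.0%) belongs to the same values.

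Members with TACATGG were found in all 3 replicates in 74.7% of cases and those without it in 60.7%, and 81.3% and 77.1% lay in a first intron, given as values without a test.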
